A study of Mus musculus with 32 samples.

Results

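Genes that mark macrophages and dendritic cells were followed through all groups of an RNA-seq study of muscle from mice that carry an inducible DUX4 transgene. DUX4 is a germline transcription factor, and its return in muscle causes facioscapulohumeral dystrophy. The members are 34 genes of 43035 in the count tables, taken from a list by symbol and divided by what they mark: 3 pan-leukocyte genes, 11 of macrophages and monocytes, 4 for Fc receptors and their signalling adaptors, 6 of resident macrophages, 6 of dendritic cells and 4 of lipid-laden macrophages. Whole muscle was sampled at 2 weeks from mice with DUX4 (IDUX.2Weeks, n = 5) and from wild-type mice (WT.2Weeks, n = 5), and at 16 weeks from both (IDUX.16Weeks, n = 4; WT.16Weeks, n = 4). From hind limb, 75000 cells per sample were sorted on CD31, a surface protein of endothelial cells, with DUX4 (CD31DUX, n = 4) and without (CD31WT, n = 3), or on PDGFRa, which marks fibro-adipogenic progenitors (FAPs), mesenchymal cells of the muscle interstitium (PDGDUX, n = 4; PDGWT, n = 3). Doxycycline chow, which switches the transgene on, is named for every sample, the wild-type ones included. Which cells drive the transgene, the age and sex of the mice, the muscles taken, the time of the sorted cells and whether libraries of a group are separate animals are not known here from the labels, so p-values measure only the spread between these libraries, which may be technical. No step against CD45, the leukocyte surface protein, is named for the sorts, and CD31 is also found on some leukocytes.

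Macrophages take up dead fibres and other debris in injured muscle and, with dendritic cells, carry antigen to T cells. Blood monocytes enter inflamed muscle and turn into macrophages there, whereas resident macrophages sit in the connective tissue of healthy muscle and carry scavenger and lectin receptors such as Mrc1 (CD206), Cd163 and the paired lectins Mgl2 and Clec10a. Macrophages that have taken in much lipid and membrane turn on Trem2, Gpnmb, Lgals3 (galectin-3) and Atp6v0d2, a subunit of the lysosomal proton pump. Dendritic cells carry the integrin Itgax (CD11c) and the receptor Flt3, and Cd83 when they mature, but macrophages can express Itgax too, and Zbtb46 is also an endothelial gene. The macrophage lineage depends on the transcription factor PU.1, encoded by the member Spi1, which binds DNA at a core of the letters GAGGAA.

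To show the start regions of genes the results turn on, 250 bases before the RefSeq start (GRCm38.p6) are given 5′ to 3′ along the gene for 5 members that were higher with DUX4 in whole muscle and held those letters on either strand. Capitals mark GAGGAA, or TTCCTC where the match lies on the other strand. A match is a description and no evidence of binding.
Cd68 (chr11:69666171-69666420, minus strand): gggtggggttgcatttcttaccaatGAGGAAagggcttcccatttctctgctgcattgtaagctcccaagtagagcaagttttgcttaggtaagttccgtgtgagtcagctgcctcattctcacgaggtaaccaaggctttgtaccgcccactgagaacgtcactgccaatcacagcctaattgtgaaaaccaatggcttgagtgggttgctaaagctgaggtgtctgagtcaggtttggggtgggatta
Aif1 (chr17:35176053-35176302, minus strand): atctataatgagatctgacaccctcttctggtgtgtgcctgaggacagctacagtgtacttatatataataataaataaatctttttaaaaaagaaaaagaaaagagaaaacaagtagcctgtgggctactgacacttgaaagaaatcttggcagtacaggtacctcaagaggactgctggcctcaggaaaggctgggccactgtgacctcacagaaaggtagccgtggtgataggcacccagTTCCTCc
Fcgr1 (chr3:96293970-96294219, minus strand): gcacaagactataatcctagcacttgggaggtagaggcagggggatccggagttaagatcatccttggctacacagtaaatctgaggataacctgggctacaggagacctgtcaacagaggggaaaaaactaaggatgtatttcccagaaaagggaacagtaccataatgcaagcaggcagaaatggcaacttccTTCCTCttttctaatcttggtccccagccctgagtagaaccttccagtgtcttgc
Mrc1 (chr2:14229164-14229413, plus strand): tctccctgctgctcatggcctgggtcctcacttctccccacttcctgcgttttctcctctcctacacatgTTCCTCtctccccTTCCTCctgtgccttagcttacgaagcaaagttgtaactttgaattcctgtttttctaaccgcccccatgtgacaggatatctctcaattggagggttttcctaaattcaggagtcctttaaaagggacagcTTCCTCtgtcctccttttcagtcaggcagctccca
Mgl2 (chr11:70130107-70130356, plus strand): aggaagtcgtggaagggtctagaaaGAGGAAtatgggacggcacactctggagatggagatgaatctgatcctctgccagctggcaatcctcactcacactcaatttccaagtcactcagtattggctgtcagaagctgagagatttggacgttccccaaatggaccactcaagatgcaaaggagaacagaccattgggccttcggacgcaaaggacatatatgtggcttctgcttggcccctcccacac
Among the members 26 had an entry, and 11 of these 26 (42.3%) held GAGGAA on either strand, against 25.9% of all 27025 genes with an entry. The longer form GAGGAAGT, which overlaps the shorter one, was in 0 of the 26 and in 2.79% of all genes. In Mrc1 there were 3 matches, the first of them beginning 180 bases before the start, and in Aif1 the single match began 7 bases before the start.

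Totals ranged from 6.07 to 20.7 M counts per library. By these totals 3 counts, the limit that a count of 0 allows, stood for 0.494 to 0.145 CPM (counts scaled to a common library size). That limit covers counting error only. The CPM given below are also divided by normalisation factors of 0.832 to 1.29, which shift it in each library. Whole-muscle and sorted libraries were made with different kits and were fitted apart, and levels are not compared between them. Endothelial marker genes summed to 4125 to 4774 CPM in CD31WT and 228 to 264 in PDGWT. FAP markers summed to 3902 to 6094 CPM in CD31WT and 41541 to 50036 in PDGWT. Of the 7 FAP markers 6 were called higher in PDGWT (edgeR, adjusted p under 0.05), and the smallest log2 difference was 0.04. Whether the FAP marker transcripts of the CD31 sorts came from FAPs was not tested. Of the members, 32 passed the filter on low counts in whole muscle (Batf3 and Cd209a did not) and 34 in sorted cells. In WT.16Weeks replicate 1, FAP markers summed to 135 CPM against 393 to 481 in the other 3 libraries, and red cell and platelet genes to 1.56 against 144 to 393. The pan-leukocyte genes summed to 123 CPM in CD31WT replicate 1 against 12.5 and 15.7 in its group, and to 44.2 in PDGWT replicate 3 against 2.71 and 3.28. Neutrophil genes were likewise high in these sorted libraries (138 and 97.0 CPM, against 5.32 to 33.9 in the other 4 WT libraries). Of the 10 libraries at 2 weeks, replicates 4 and 5 of each genotype come from a second block of accessions, with a pan-leukocyte sum of 6.90 to 8.78 CPM against 15.5 to 30.4 in replicates 1 to 3.

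**Figure D1:**
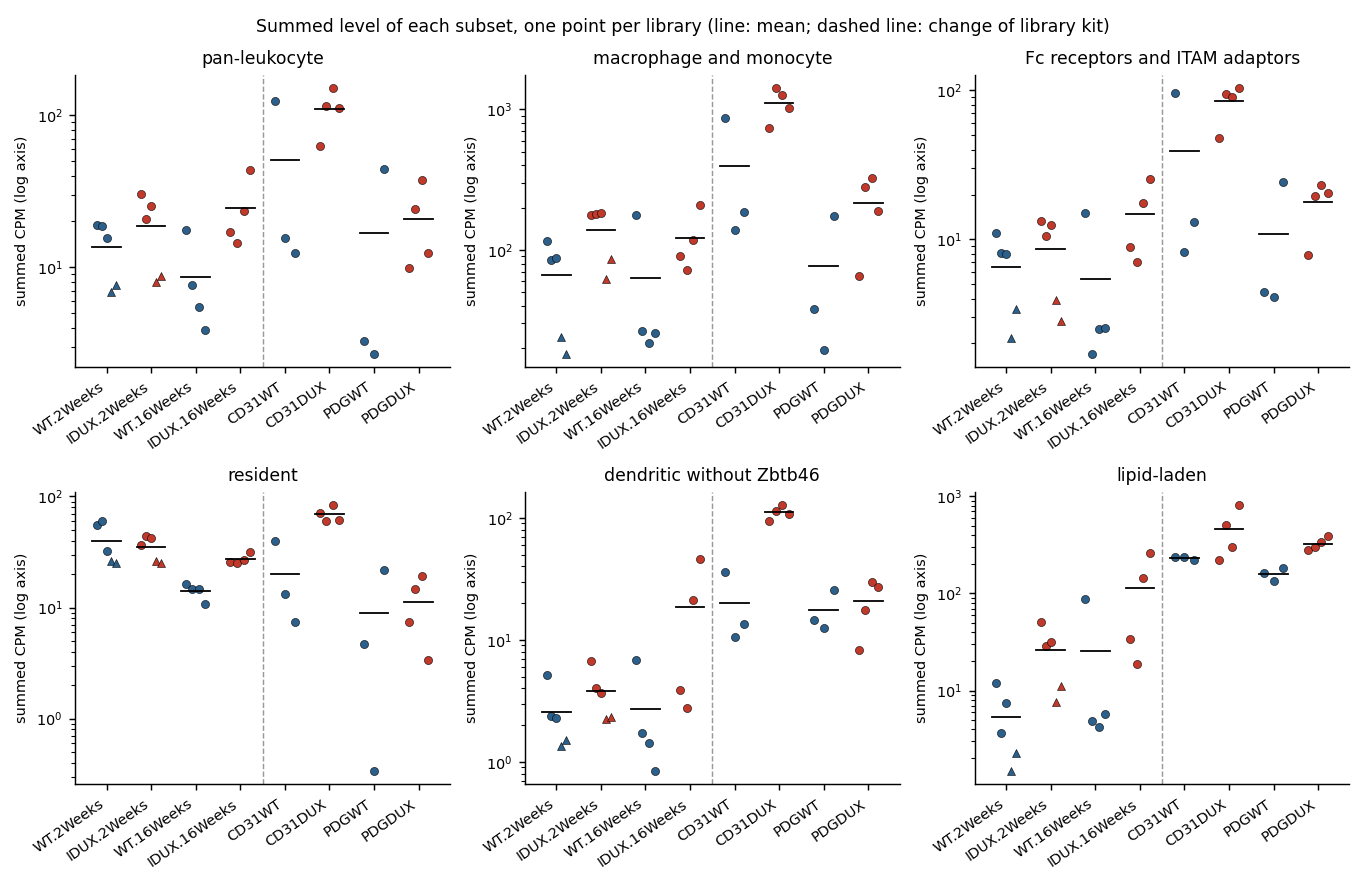
Summed TMM-normalised CPM of each subset (log axis) in every library of the 8 groups; blue points are WT and red points DUX4 libraries, lines are group means, triangles are replicates 4 and 5 at 2 weeks, and the dashed line separates the library kits. In the pan-leukocyte, macrophage and Fc receptor panels, WT.16Weeks replicate 1, CD31WT replicate 1 and PDGWT replicate 3 lie apart from the other WT libraries of their groups. In the resident panel WT.16Weeks replicate 1 (16.4 CPM) is close to replicate 2 (14.7). In the lipid-laden panel CD31WT replicate 1 and PDGWT replicate 3 (235 and 183 CPM) are close to CD31WT replicate 2 and PDGWT replicate 1 (235 and 164). The resident sum of IDUX.16Weeks (25.0 to 31.5 CPM) lies above that of WT.16Weeks (10.8 to 16.4). The dendritic panel leaves out Zbtb46.

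In wild-type muscle the most abundant member per kilobase of exon was Lyz2, the lysozyme of macrophages and neutrophils, at 28.6 ± 20.4 CPM per kb (SD, n = 5) at 2 weeks. At that time the resident lectin Mrc1 (3.11 ± 0.737) and Mgl2 (2.90 ± 1.53) came next, differing by less than their spread. In WT.16Weeks the order behind Lyz2 was Lgals3 (7.31 ± 11.2 CPM per kb, n = 4) and Cd68 (5.94 ± 9.69), with an SD above each mean because replicate 1 held most of both. In the CD31WT sorts Lyz2 (166 ± 190 CPM per kb, n = 3) led Lgals3 (111 ± 2.97) and the lipopolysaccharide receptor gene Cd14 (48.4 ± 25.1). In PDGWT, Lyz2 (25.1 ± 33.9), Lgals3 (23.9 ± 8.01) and Gpnmb (17.5 ± 2.15) differed by less than the spread of Lyz2. Lyz2 shares 32.8% of its 31-base words with its copy Lyz1, so reads could pass between them.

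At 2 weeks, DUX4 muscle had more transcript of the macrophage lysosomal protein Cd68 and of Csf1r, the receptor for the growth factor that macrophages live on, without a called rise in any pan-leukocyte gene. These 2 were the only ones called of 32 tested, both higher (edgeR, adjusted p under 0.05), where 17.6% of all 15396 genes were called, 11.2% higher and 6.47% lower. The median log2 difference of the members was 0.50, against -0.01 over all genes. In whole tissue, fewer cells of a type and less RNA per cell cannot be told apart, nor can the reverse.

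Cd68 stood at 27.6, 42.4, 33.3, 15.9 and 44.2 CPM in IDUX.2Weeks and at 3.84, 3.90, 3.49, 1.01 and 0.660 in WT.2Weeks. The lowest DUX4 library lay above the highest WT library, and Cd68 was the single member without overlap, where 8.95% of all genes had every DUX4 library above every WT library. The log2 difference was 3.67 ± 0.84 (SE, adjusted p = 0.00624), and it was called in 10 of 10 fits that each left out a library. Within replicates 1 to 3 it was 3.19 (adjusted p = 0.000473), and within replicates 4 and 5 it was 5.10 (adjusted p = 0.0986). Csf1r stood at 29.2, 40.9, 34.8, 16.1 and 19.6 CPM with DUX4 and at 18.1, 16.5, 12.8, 3.85 and 2.64 in WT muscle. Its groups overlapped between the blocks of libraries but not within either block. Its log2 difference was 1.39 ± 0.46 (adjusted p = 0.0447) and was called in 3 of 10 fits without a library, the highest adjusted p being 0.118. Exons of Csf1r overlap those of Hmgxb3 on the opposite strand over 15.1% of their length, and the counting is not stated to use strand.

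Ptprc, which encodes CD45 of all leukocytes, differed by 0.15 ± 0.49 on the log2 scale at 2 weeks (adjusted p = 0.869). Its values were 7.33, 5.06, 6.03, 1.78 and 2.07 CPM with DUX4 and 5.39, 6.83, 4.13, 2.30 and 1.51 without. Both groups spanned the same range, with replicates 4 and 5 low in each. Divided by the summed pan-leukocyte genes of the same library, Cd68 ran from 0.909 to 5.04 in IDUX.2Weeks and from 0.0864 to 0.225 in WT.2Weeks, and Csf1r from 0.963 to 2.23 against 0.346 to 0.957. Neither ratio overlapped between the genotypes, although the gap for Csf1r was narrow. The ratios are given as a description. Of the other markers at 2 weeks, 5 of 6 muscle fibre genes were called lower and 0 of 7 FAP genes were called (1 at an unadjusted p under 0.05), and their part in these differences was not tested.

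The other subsets were examined in turn at 2 weeks. Of the 4 lipid-laden genes none was called, but all 4 had a positive log2 difference (median 2.23, range 2.13 to 2.50). Lgals3 was at 34.5, 20.0, 18.4, 5.96 and 8.78 CPM with DUX4 and at 7.92, 2.60, 4.41, 1.01 and 1.41 without, which gave a log2 difference of 2.33 ± 0.82 (adjusted p = 0.0582). It overlapped between blocks of libraries, and within replicates 1 to 3 the difference was 2.25 (adjusted p = 0.0146). Lgals3 was also called with a term for the blocks (2.38), by DESeq2, by voom and in a fit of only these groups. Gpnmb, a membrane glycoprotein of lysosome-rich macrophages, was at 11, 5.42, 8.89, 1.32 and 1.45 CPM against 2.61, 0.325, 2.48, 0.406 and 0.566 (2.13 ± 1.28, adjusted p = 0.278). Of the 6 resident genes none was called and 5 had a negative log2 difference (median -0.28), with Mrc1 at -0.33 ± 0.18 (adjusted p = 0.232). The sign of Mgl2 depended on the block, at -0.27 in replicates 1 to 3 and 0.59 in replicates 4 and 5. Medians were 0.74 for the 11 macrophage and monocyte genes, 0.28 for the Fc receptor and adaptor genes and 0.18 for the 4 tested dendritic genes. In replicates 1 to 3 alone 8 members were called, all higher (Laptm5, Csf1r, Cd68, Cx3cr1, Itgax, Trem2, Gpnmb and Lgals3), and in replicates 4 and 5 alone 0 were, of 21 tested. The share of all genes called within each block is not given.

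**Figure D2:**
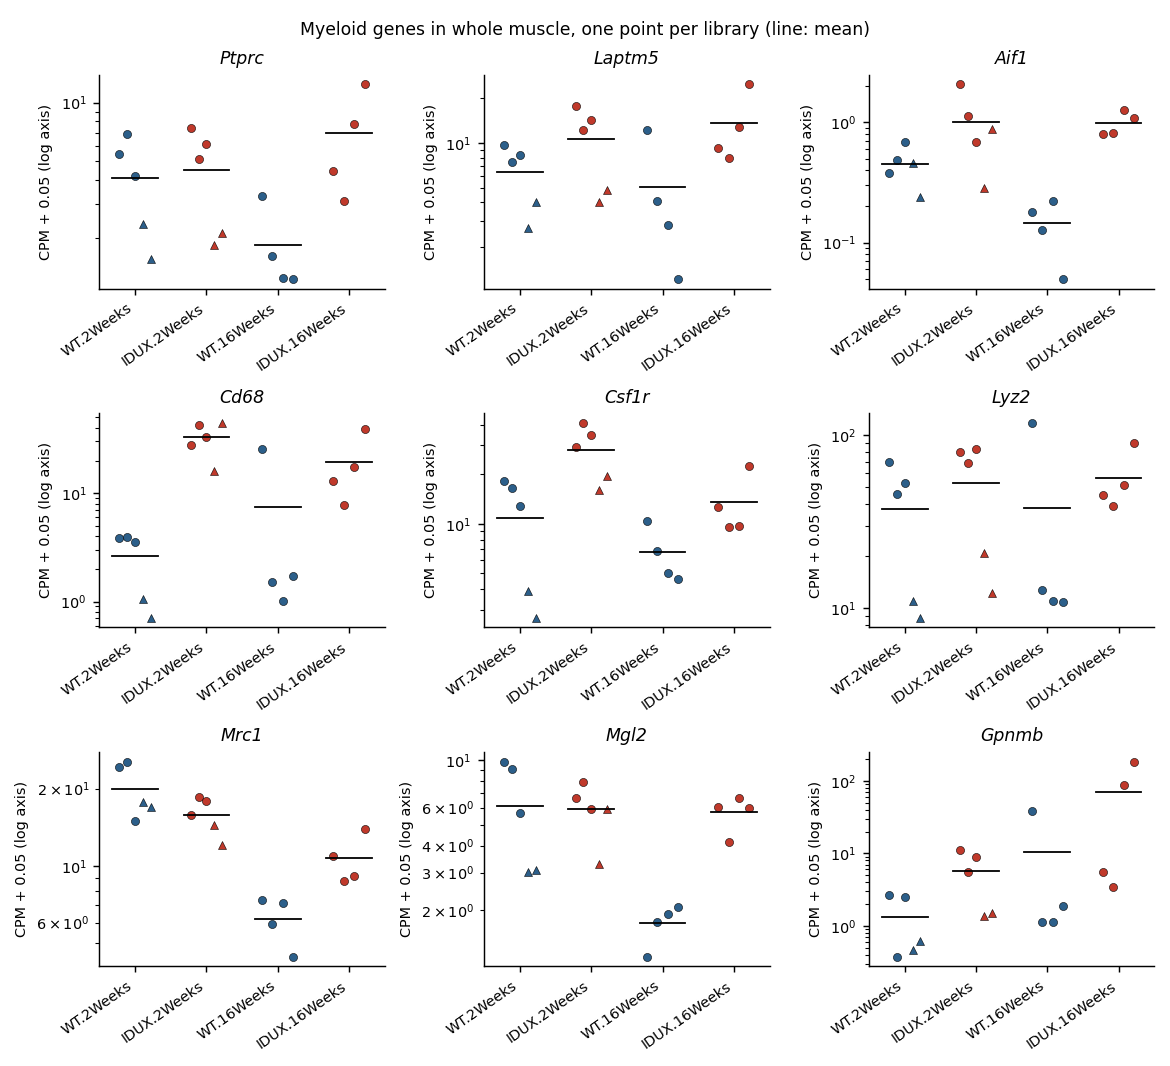
CPM + 0.05 (log axis) of 9 members in each whole-muscle library, with blue points for WT, red points for DUX4, lines for group means and triangles for replicates 4 and 5 at 2 weeks. Cd68 is separated at 2 weeks (15.9 CPM or more against 3.90 or less), Mgl2 and Aif1 are separated at 16 weeks, and WT.16Weeks replicate 1 stands high in Cd68, Lyz2 and Gpnmb.

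At 16 weeks the called members came from 5 of the 6 subsets: 9 of 32 members were called higher and 0 lower, and all 32 had a positive log2 difference (median 1.53, against 0.01 over all genes). Among all genes 26.6% were called, 14.1% higher and 12.5% lower. The called members were Ptprc and Coro1a of the pan-leukocyte genes, Aif1 and Ms4a7 of macrophages, and the Fc receptor gene Fcgr1. The rest were the lectins Mrc1 and Mgl2 of the resident list, and Itgax and Cd83 of the dendritic list. Every DUX4 library lay above every WT library for 9 members, where 15.2% of all genes did so. These were Coro1a, Aif1, Ms4a7, Fcgr1, Mrc1, Mgl2, Clec10a, Flt3 and Cd83, with Flt3 apart only by a narrow margin on few counts. In the other direction 0 members lay wholly below, where 11.9% of all genes did. Leaving out WT.16Weeks replicate 1 raised the count to 25, and leaving out IDUX.16Weeks replicate 4 lowered it to 2, Aif1 and Mgl2. It was 5 without WT.16Weeks replicate 2 and 3 without WT.16Weeks replicate 3.

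Aif1 (Iba1), an actin-binding protein of macrophages, was at 0.754, 0.762, 1.21 and 1.03 CPM in IDUX.16Weeks and at 0.130, 0.0777, 0.170 and 0 in WT.16Weeks. The WT values were at or under the limit that a count of 0 allows. Its log2 difference was 3.0 ± 0.63 (adjusted p = 0.00256). Mgl2 was at 5.98, 4.12, 6.61 and 5.94 CPM with DUX4 and 1.17, 1.71, 1.87 and 2.02 without, and WT replicate 1 was the lowest of its group here. The log2 difference was 1.76 ± 0.38 (adjusted p = 0.00295). Both genes were called in 8 of 8 fits that each left out a library. Clec10a, which shares 19.3% of the 31-base words of Mgl2, stood at 4.66, 5.64, 5.59 and 3.79 CPM against 1.63, 1.71, 1.47 and 0.841 (1.75 ± 0.74, adjusted p = 0.0887). The fitted differences of both lectins were alike in size, with a wider error for Clec10a.

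Mrc1 was at 10.8, 8.69, 9.09 and 13.9 CPM with DUX4 and 7.30, 5.90, 7.08 and 4.37 without. The groups did not overlap, and the difference was 0.78 ± 0.21 (adjusted p = 0.0129), or uncalled without IDUX.16Weeks replicate 4 (adjusted p = 0.0539). Cd163, the haemoglobin scavenger receptor of resident macrophages, was at 3.25, 4.57, 3.88 and 4.05 against 4.8, 4.66, 2.89 and 2.52 CPM (0.06 ± 0.35, adjusted p = 0.926). Of the remaining resident genes, Folr2 and Timd4 were not called (0.88 ± 0.81 and 1.33 ± 0.86). The 6 resident genes together summed to 25.0 to 31.5 CPM with DUX4 and 10.8 to 16.4 without. The other 5 sums overlapped between the genotypes at 16 weeks.

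Ptprc rose from 3.26, 1.55, 1.19 and 1.18 CPM to 4.38, 3.05, 7.75 and 12.4 (1.93 ± 0.57, adjusted p = 0.0194). Replicate 1 of WT muscle, at 3.26, lay above the second DUX4 library at 3.05. Coro1a, which encodes an actin regulator of leukocytes, rose from 2.15, 2.10, 1.53 and 1.51 CPM to 3.44, 3.35, 2.99 and 6.50 (1.16 ± 0.37, adjusted p = 0.0270). The lysosomal gene Laptm5 stood at 9.18, 7.93, 12.8 and 24.8 CPM against 12.2, 4.04, 2.77 and 1.18, and was not called (1.40 ± 0.62, adjusted p = 0.105), but was without WT.16Weeks replicate 1 (2.30, adjusted p = 0.0129). Each of Ptprc and Coro1a was called in 5 of 8 fits that left out a library: the first lost its call without IDUX.16Weeks replicate 4, WT.16Weeks replicate 2 or WT.16Weeks replicate 3 (adjusted p up to 0.0787), the second without IDUX.16Weeks replicate 4, WT.16Weeks replicate 3 or WT.16Weeks replicate 4 (up to 0.120).

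Of the 11 macrophage and monocyte genes 9 were not called at 16 weeks, Cd68 and Csf1r among them. Cd68 was at 13.0, 7.78, 17.3 and 38.6 CPM in IDUX.16Weeks and at 25.7, 1.48, 0.963 and 1.68 in WT.16Weeks. The WT library at 25.7 exceeded 3 of the 4 DUX4 libraries, and the difference was 1.34 ± 0.84 (adjusted p = 0.254). Without that library it was 3.87 (adjusted p = 0.00101). Lyz2 was at 45.0, 38.9, 51.6 and 89.7 against 117, 12.7, 10.9 and 10.8 CPM (0.56 ± 0.83, adjusted p = 0.659), the highest of all 8 being the same WT library. Ms4a7, a macrophage membrane gene, was at 1.93, 2.44, 2.35 and 2.50 against 1.37, 0.544, 0.453 and 0 CPM (1.83 ± 0.64, adjusted p = 0.0444), and was called in 1 of 8 fits that each left out a library. Fcgr1, the high-affinity antibody receptor, was at 0.565, 0.762, 0.381 and 0.603 CPM against 0.195, 0.0777, 0 and 0 (2.75 ± 0.90, adjusted p = 0.0315), and was called in 2 of 8 such fits. The antibody receptor adaptor Fcer1g stood at 2.78, 3.20, 5.46 and 6.50 against 3.32, 0.544, 0.963 and 0.505 CPM (1.70 ± 0.68, adjusted p = 0.0765). Tyrobp, the adaptor of Trem2, stood at 1.74, 1.37, 5.91 and 10.2 against 4.8, 0.388, 0.736 and 0.673 (1.51 ± 0.76, adjusted p = 0.156). Csf1r stood at 12.5, 9.45, 9.59 and 22.5 against 10.4, 6.76, 4.98 and 4.54 CPM (1.02 ± 0.52, adjusted p = 0.157). In all 3 of these genes WT replicate 1 reached into the range of the DUX4 libraries. Without that library Lyz2 was at 2.29 (adjusted p = 0.0393), Fcer1g at 2.67 (adjusted p = 0.0121) and Tyrobp at 3.01 (adjusted p = 0.00851), all called, whereas Csf1r was not (1.31, adjusted p = 0.105).

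The DUX4 libraries at 16 weeks were themselves divided in the lipid-laden and Itgax transcripts. Gpnmb stood at 87.6 and 184 CPM in replicates 3 and 4 but at 5.42 and 3.35 in replicates 1 and 2, against 38.0 in WT replicate 1 and 1.09, 1.08 and 1.85 in the other WT libraries (2.71 ± 1.25, adjusted p = 0.122). Itgax followed the same division: it was at 0.942, 0.457, 17.5 and 42.1 CPM with DUX4 and 5.67, 0.233, 0.510 and 0.168 without (3.14 ± 1.12, adjusted p = 0.0483), and was called in 3 of 8 fits without a library (it lost its call without replicates 3 or 4 with DUX4 and without replicates 2, 3 or 4 of WT). Atp6v0d2 was at 0.0942, 0, 6.04 and 11.7 CPM with DUX4 and at 3.0, 0.0777, 0.0566 and 0 without (2.42 ± 1.33, adjusted p = 0.191). Lgals3 was less divided, at 27.1, 14.5, 44.8 and 55.2 against 44.8, 2.95, 2.83 and 3.70 CPM (1.37 ± 0.85, adjusted p = 0.250). None of the 4 lipid-laden genes was called, with a median difference of 2.32. Without IDUX.16Weeks replicate 4, which held the most Gpnmb, none was called either. Without WT.16Weeks replicate 1 all 4 were called: Trem2 was then at 3.52 (adjusted p = 0.0220), Gpnmb at 5.79 (adjusted p = 0.00837), Lgals3 at 3.51 (adjusted p = 0.00323) and Atp6v0d2 at 6.17 (adjusted p = 0.0189).

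Among dendritic genes, Cd83 was at 1.37, 1.52, 1.78 and 2.84 CPM with DUX4 and 0.586, 0.854, 0.227 and 0 without (2.06 ± 0.60, adjusted p = 0.0178). Its groups did not overlap, and it lost its call without IDUX.16Weeks replicate 4 or WT.16Weeks replicate 3 (adjusted p up to 0.0606). Flt3 stood at 0.518, 0.457, 1.21 and 0.603 against 0.456, 0.233, 0.170 and 0 CPM (1.53 ± 0.59, adjusted p = 0.0646). It was called without WT.16Weeks replicate 1 (2.10, adjusted p = 0.0287). Its lowest DUX4 library (0.457 CPM, 3 counts) and highest WT library (0.456 CPM) hardly differed. Zbtb46 was not called (0.03 ± 0.16, adjusted p = 0.902), at 8.54 ± 1.79 CPM with DUX4 and 8.36 ± 1.02 without (SD, n = 4 each). Batf3 and Cd209a, untested in whole muscle, were at 0.471 CPM or less and 0.565 or less in every library of both groups.

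Markers of other cells moved at 16 weeks as well. FAP markers summed to 647 to 1243 CPM with DUX4 and 135 to 481 without, with 3 of 7 called higher, and 4 of 6 muscle fibre genes were called lower. T and NK cell genes summed to 1.83 to 7.88 CPM with DUX4 and 1.01 to 3.06 without, with Nkg7 at 0 in every library of both groups, and neutrophil genes to 2.59 to 16.5 and 3.45 to 4.89, with Ly6g at 0 in both. B and plasma cell genes summed to 2.44 to 7.69 and 1.51 to 2.41 CPM, with 2 of 3 tested called higher. Their part in the members' differences was not tested.

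**Figure D3:**
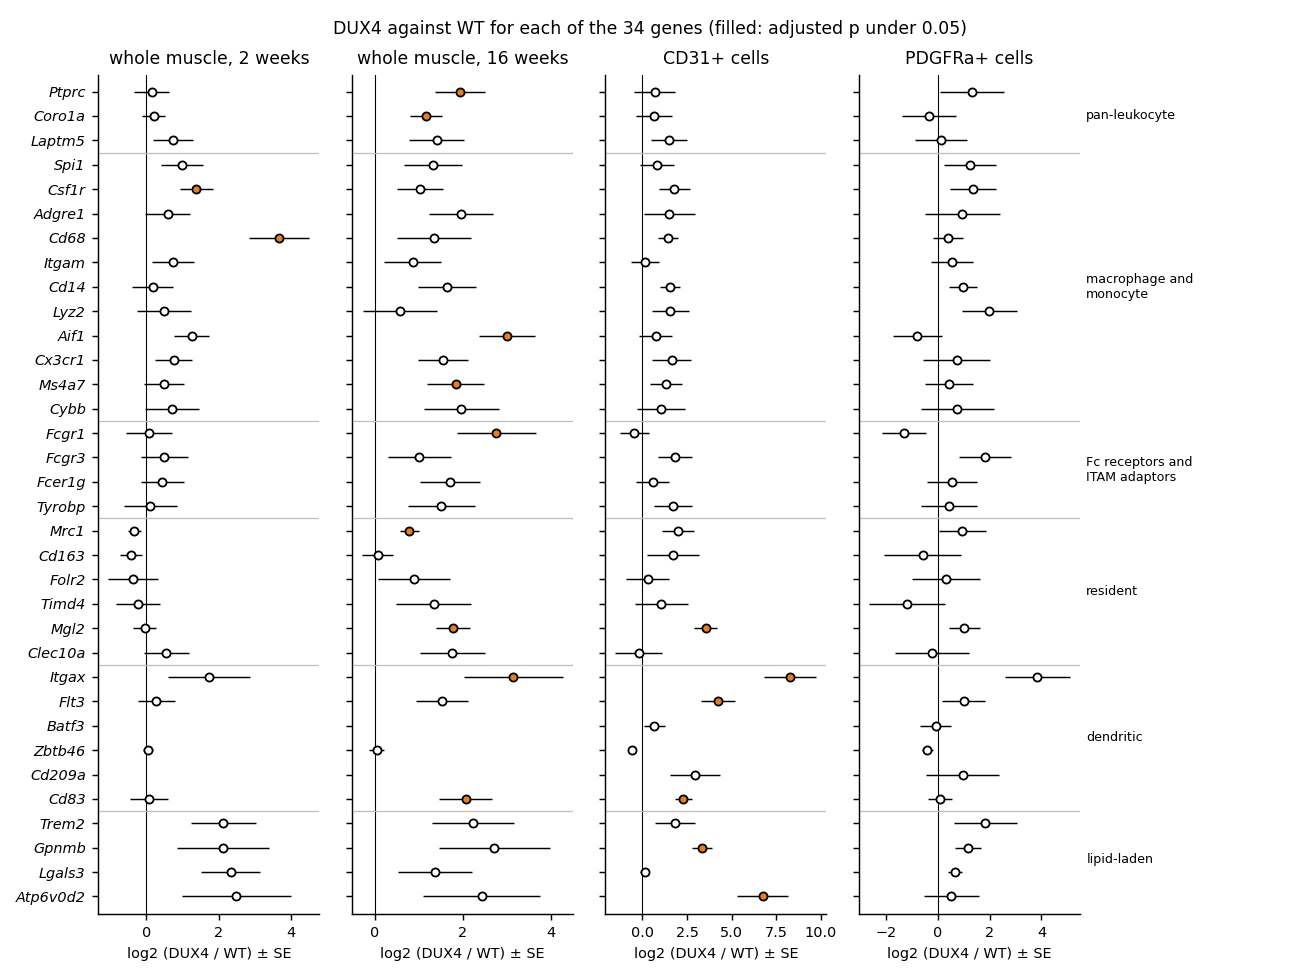
Log2 difference between DUX4 and WT libraries for each member (horizontal axis, a separate scale in each panel; bars are the SE) in the 4 DUX4 comparisons, in order of subset, with filled points for an adjusted p under 0.05. Of the tested members 2 are filled at 2 weeks, 9 at 16 weeks, 6 in CD31+ cells and 0 in PDGFRa+ cells, and at 16 weeks all 32 points lie right of 0.

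Whether the effect of DUX4 differed between the times was tested by an interaction term. It was called for 0 of 32 members (6 at an unadjusted p under 0.05, 2 by DESeq2 and 0 by voom), where 0.299% of all genes were called, 0.188% higher and 0.11% lower. The smallest p values were those of the resident genes Mrc1 at 1.11 ± 0.28 (adjusted p = 0.0930) and Mgl2 at 1.8 ± 0.49 (adjusted p = 0.114), which DESeq2 called. Their size was not the largest: Fcgr1 was at 2.68 ± 1.11 (adjusted p = 0.231), and the median of all 32 was 1.15. Cd68 went the other way (-2.34 ± 1.15, adjusted p = 0.302), a sign that depended on WT.16Weeks replicate 1. That library held 25.7 CPM of Cd68, against 1.68 in the next highest of its group. Without it the 16-week difference of Cd68, given above, was no smaller than the 2-week difference of the full fit. Relative to the pan-leukocyte sum of the same library, the lipid-laden sum ran from 0.952 to 1.67 in IDUX.2Weeks and 0.198 to 0.628 in WT.2Weeks without overlap. At 16 weeks the same ratio overlapped, at 1.32 to 6.11 with DUX4 and 0.626 to 5.0 without. The resident sum ran from 1.20 to 3.25 with DUX4 and 2.07 to 3.77 without at 2 weeks, and from 0.721 to 1.74 and 0.926 to 2.78 at 16 weeks.

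**Figure D4:**
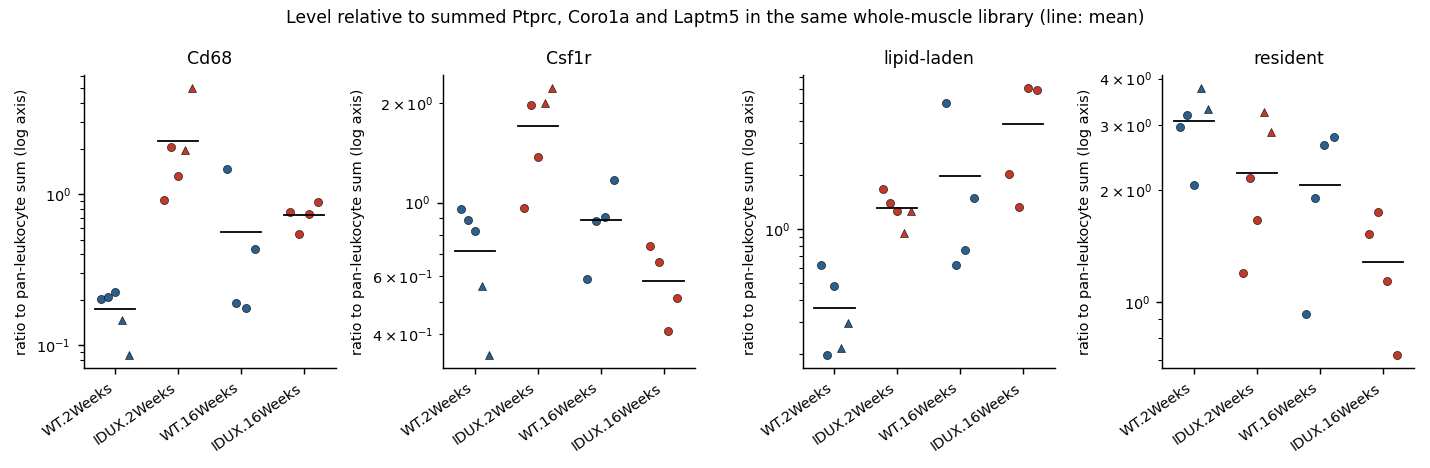
Cd68, Csf1r and the summed lipid-laden and resident genes, each divided by the summed CPM of Ptprc, Coro1a and Laptm5 in the same whole-muscle library (log axis); points are libraries (blue WT, red DUX4, triangles for replicates 4 and 5 at 2 weeks) and lines are means. At 2 weeks the DUX4 libraries lie above the WT libraries in the first 3 panels. At 16 weeks the groups overlap in every panel, that of Csf1r included.

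Genes that recruit or accompany these cells were read from wider lists. Among all genes 11.2% were called higher and 6.47% lower at 2 weeks, and 14.1% and 12.5% at 16 weeks. A count near these shares is not a trait of its list. Cx3cl1, the ligand of the member Cx3cr1, was higher with DUX4 at 2 weeks (2.07 ± 0.50, adjusted p = 0.00886) and at 16 weeks (3.19 ± 0.59, adjusted p = 0.00106). At 16 weeks it stood at 25.1, 10.2, 8.51 and 18.3 CPM against 0.586, 2.02, 2.15 and 2.19, without overlap. Of 7 tested growth factor and recruitment genes 1 was called at 2 weeks and 2 at 16 weeks, the other being the monocyte chemokine receptor Ccr2 (1.57 ± 0.54, adjusted p = 0.0396). Of 26 further macrophage genes 2 were called higher at 2 weeks, among them Ncf1 (2.55 ± 0.55), which encodes a subunit of the phagocyte oxidase. At 16 weeks 6 were higher and 1 lower: Ncf1 was at 3.88 ± 0.63, the phagocyte checkpoint receptor Sirpa at 2.35 ± 0.44 and the oxidase subunit Cyba at 1.92 ± 0.43. The oxidase core Cybb, a member, was not called (1.96 ± 0.85, adjusted p = 0.0974), but was without WT.16Weeks replicate 1 (3.24, adjusted p = 0.0175). Of 16 further lipid-related genes 3 were higher at each time, among them the tetraspanin Cd9 (1.43 ± 0.26 and 1.8 ± 0.29) and the cholesterol exporter Abcg1 (0.89 ± 0.29 and 1.17 ± 0.34). Of 8 further dendritic genes 0 were called at 2 weeks (2 at an unadjusted p under 0.05), and 3 were higher and 1 lower at 16 weeks, the hydrolase Naaa being at 1.10 ± 0.23, Xcr1 of cross-presenting cells at 2.03 ± 0.65 and Cd24a, which many other cells express, at -1.23 ± 0.27.

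In CD31+ cells, transcripts of Itgax, Flt3, Cd83, Mgl2, Gpnmb and Atp6v0d2 were higher with DUX4, whereas the pan-leukocyte and general macrophage genes were not called. These 6 of 34 members were called higher and 0 lower, where 5.07% of all 17008 genes were called, 3.72% higher and 1.35% lower. The members' median log2 difference was 1.49, against -0.0046 over all genes. The members' median was 3.03 without CD31WT replicate 1 and 1.11 without CD31WT replicate 3. In 11 members every DUX4 library lay above every WT library, and in 1, Zbtb46, below, where 9.89% and 8.18% of all genes did so. The count of calls was 10 without CD31WT replicate 1 and 3 (Mgl2, Itgax and Gpnmb) without CD31WT replicate 3. For these fits too, the share of all genes called is not given.

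Itgax was at 7.03, 17.6, 12.7 and 18.6 CPM in CD31DUX and at 0, 0.112 and 0 in CD31WT. The WT values were at or under the limit that a count of 0 allows, and the groups lay far apart. The log2 difference was 8.29 ± 1.45 (adjusted p = 0.00261), a size that depends on the near absence of counts in WT cells. Flt3 was at 4.89, 3.64, 3.41 and 2.18 CPM against 0.259, 0.224 and 0.0591 (4.22 ± 0.95, adjusted p = 0.0146). Cd83 was at 67.1, 83.4, 99.1 and 82.3 CPM against 31, 8.45 and 11.6 (2.28 ± 0.48, adjusted p = 0.0112). Neither gene overlapped between the groups. The further dendritic list held 1 called gene of 10, Ccl22, a chemokine of mature dendritic cells, at 5.16, 4.58, 3.41 and 2.05 CPM in CD31DUX and at 0 in all 3 CD31WT libraries, which is at least 22.8-fold higher when 3 counts in each library are taken as the floor.

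Mgl2 was at 25.7, 20.9, 22.4 and 11.3 CPM in CD31DUX and 1.97, 2.18 and 1.0 in CD31WT (3.54 ± 0.65, adjusted p = 0.00358). Cd209a, a lectin of dendritic cells, was at 13.3, 6.96, 7.26 and 2.87 CPM against 2.08, 0.168 and 0.709 (2.94 ± 1.40, adjusted p = 0.297), and Batf3, a transcription factor of cross-presenting cells, at 2.69, 1.74, 4.57 and 2.26 against 2.70, 1.57 and 1.06 (0.66 ± 0.60, adjusted p = 0.638). Clec10a, the copy of Mgl2, was at 1.70, 1.95, 4.42 and 2.05 against 7.42, 0.783 and 0.532 CPM (-0.20 ± 1.31, adjusted p = 0.958). Mrc1 was at 25.2, 26.1, 39.6 and 34 against 10.8, 9.62 and 3.19 (1.99 ± 0.88, adjusted p = 0.261), without overlap and without a call. Gpnmb was at 85.3, 249, 97.7 and 451 CPM against 30.1, 22.7 and 12.4 (3.34 ± 0.55, adjusted p = 0.00333). Atp6v0d2 was at 2.14, 12.3, 3.46 and 17.1 CPM against 0, 0.224 and 0 (6.74 ± 1.44, adjusted p = 0.0108). In both, CD31DUX replicates 2 and 4 were the highest. Lgals3 hardly differed, at 132, 237, 198 and 333 against 201, 211 and 208 CPM (0.12 ± 0.27, adjusted p = 0.878).

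Ptprc, the pan-leukocyte gene, was not called in this contrast. It was at 11, 22.7, 40.3 and 25.3 CPM in CD31DUX and at 40.1, 4.59 and 1.60 in CD31WT (0.68 ± 1.15, adjusted p = 0.833). CD31WT replicate 1 had as much Ptprc as the highest DUX4 library and 506 CPM of Lyz2. It had no count of Itgax, Atp6v0d2 or Ccl22, 0.259 CPM of Flt3 and 1.97 of Mgl2. Ptprc marks leukocytes of every kind, so its level does not tell which kind a library held. Neutrophil genes summed to 138 CPM in that library, against 10.7 to 15.8 in CD31DUX. In the same library Cd83 (31 CPM) and Gpnmb (30.1) were the highest of the WT group, as Ptprc was. Among the CD31DUX libraries Cd83, like Ptprc, was lowest in replicate 1 and highest in replicate 3. The other called members did not share that order: Itgax, Gpnmb and Atp6v0d2 were lowest in replicate 1 and highest in replicate 4. Flt3 and Mgl2 were highest in replicate 1 and lowest in replicate 4. The part of carried leukocytes in the called differences was not tested. Lyz2 was at 395, 904, 762 and 497 CPM with DUX4, and at 48.3 and 102 in the other 2 WT libraries (1.55 ± 1.04, adjusted p = 0.502). Csf1r was at 62.1, 57.1, 69.0 and 71.4 against 44.4, 2.85 and 8.81 CPM, without overlap (1.79 ± 0.86, adjusted p = 0.313). Without CD31WT replicate 1, Csf1r reached an adjusted p of 0.0354 and Cd68 one of 0.0147. Laptm5 stood at 43.1, 73.5, 89.9 and 71.8 against 59.8, 7.61 and 7.68 CPM, Fcer1g at 16.6, 34, 32.4 and 38.6 against 51.9, 4.25 and 5.38, and Tyrobp at 8.84, 28.1, 21.2 and 29.5 against 17.3, 1.18 and 1.30. In each of these 3 the WT groups were spread widely by replicate 1.

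**Figure D5:**
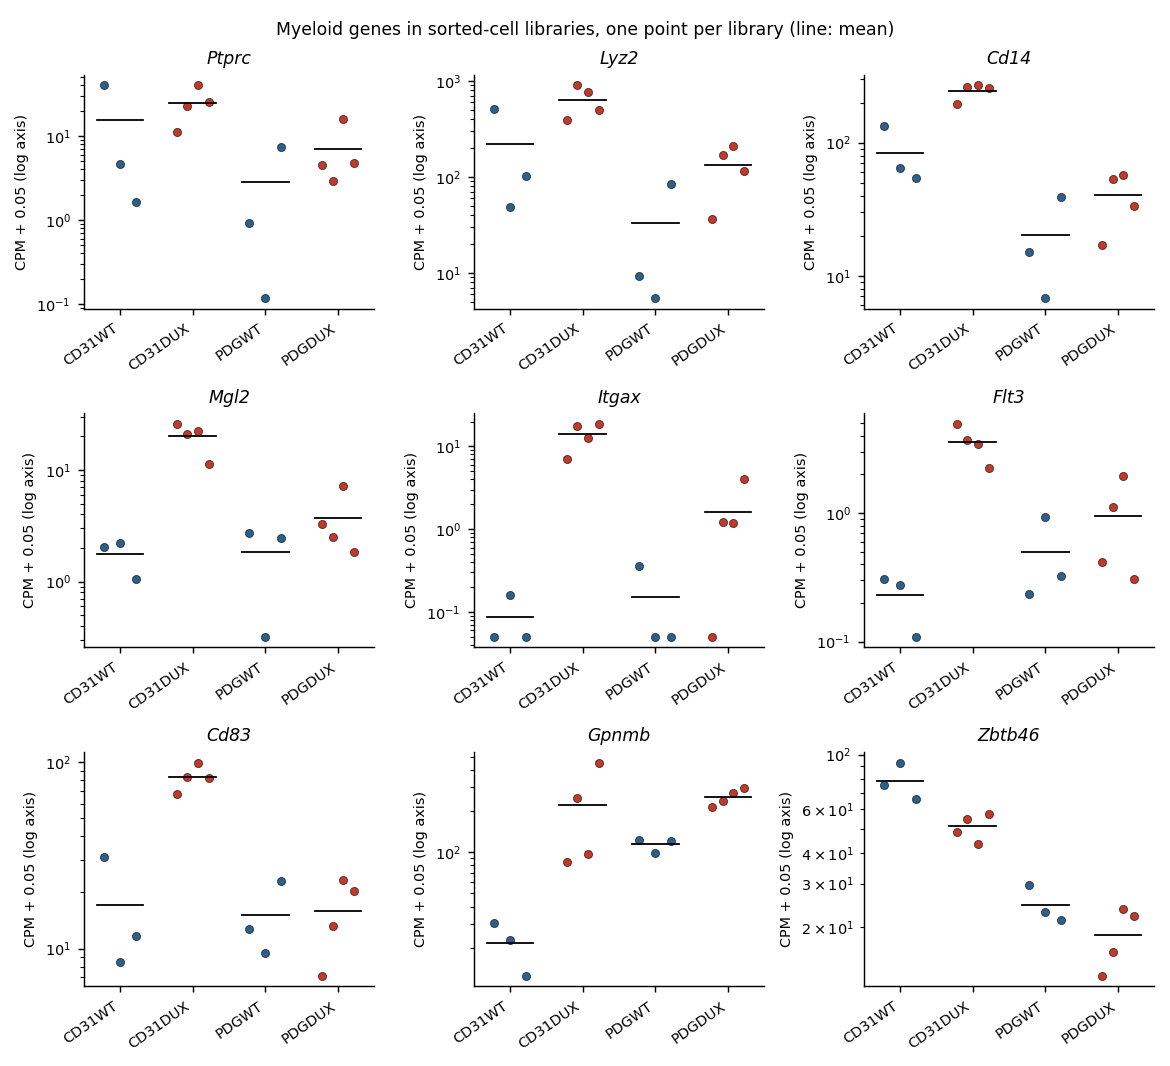
CPM + 0.05 (log axis) of 9 members in each sorted-cell library, with blue points for WT, red points for DUX4 and lines for group means. In CD31+ cells Itgax, Flt3, Cd83, Mgl2 and Gpnmb are separated between the genotypes. The CD31WT library with the highest Ptprc (40.1 CPM) has Itgax at 0 and also the highest neutrophil sum of its group. Gpnmb is high in every PDGFRa+ library (98.0 CPM or more) and Zbtb46 is higher in CD31+ than in PDGFRa+ cells.

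Other cell types moved with this contrast. FAP markers summed to 10631 to 12529 CPM in CD31DUX and 3902 to 6094 in CD31WT, with 6 of 7 called higher, and 2 of 4 mural cell markers were called lower. Of 8 endothelial markers 0 were called (3 at an unadjusted p under 0.05). Neutrophil genes summed to 10.7 to 15.8 CPM with DUX4 and 10.8 to 138 without, with Camp at 0 in both groups, and T and NK genes to 22.7 to 40.6 and 13.8 to 21.5, with Cd8a, Nkg7 and Gzma at 0 in CD31WT. Their part in the differences was not tested. The fibre genes all had positive differences, with 0 of 6 called (5 at an unadjusted p under 0.05). Zbtb46 was at 48.6, 54.8, 43.4 and 57.4 CPM in CD31DUX and 75.3, 92.6 and 65.8 in CD31WT (-0.61 ± 0.21, adjusted p = 0.119), and 29.5 CPM or less in every PDGFRa+ library.

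Among further macrophage genes 4 of 28 were called higher in CD31+ cells with DUX4, where 3.72% of all genes were called higher and 1.35% lower. These were led by the phagocytic receptor Axl (1.35 ± 0.21), the transcription factor Maf (1.54 ± 0.36) and Lyve1 (2.93 ± 0.64), which lymphatic endothelium also expresses. The protease Ctsb was higher (1.03 ± 0.14) and the lipase Lpl lower (-0.71 ± 0.18) among 16 further lipid-related genes. None of 9 growth factor and recruitment genes was called (2 at an unadjusted p under 0.05).

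In PDGFRa+ cells 0 of 34 members were called with DUX4 (edgeR, 3 at an unadjusted p under 0.05, DESeq2 0 and voom 0), where 3% of all genes were called, 1.23% higher and 1.77% lower. The median difference was 0.61, against -0.07 over all genes. Gpnmb was at 213, 236, 273 and 293 CPM in PDGDUX and at 124, 98.0 and 121 in PDGWT (1.15 ± 0.50, adjusted p = 0.297). Its groups did not overlap, as 5.6% of all genes did not in this direction, and it was called when only these 2 groups were fitted. Lgals3 was at 66.0, 61.3, 58.7 and 95.5 against 39.6, 32.4 and 61.0 CPM (0.67 ± 0.27, adjusted p = 0.254). Itgax was at 0, 1.18, 1.14 and 3.94 CPM against 0.309, 0 and 0 (3.84 ± 1.25, adjusted p = 0.125). Fcgr1, at 1.48, 0.428, 0.949 and 0 against 1.98, 1.90 and 1.48 CPM, was the single member with no DUX4 library above the lowest WT library, where 9.13% of all genes lay wholly below (-1.32 ± 0.86, adjusted p = 0.539).

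The leukocyte genes Ptprc and Lyz2 overlapped between the genotypes. Ptprc was at 4.43, 2.89, 16 and 4.71 CPM in PDGDUX and at 0.865, 0.0677 and 7.37 in PDGWT (1.32 ± 1.23, adjusted p = 0.709). Lyz2 was at 36.1, 168, 207 and 116 against 9.21, 5.42 and 84.6 (1.99 ± 1.07, adjusted p = 0.437). In both genes PDGWT replicate 3 was the highest WT library and lay within the DUX4 range. Without it the members' median difference was 2.47 and 0 were called. The share of all genes called in that fit is not given. Gpnmb in PDGWT replicate 2, at 98.0 CPM, was accompanied by 0.0677 CPM of Ptprc, which was 1 count. Coro1a and Laptm5 had 19 and 20 counts there, and the pan-leukocyte sum was 2.71 CPM, against 3.28 in PDGWT replicate 1. Of the markers of other cells, 3 of 8 endothelial and 2 of 4 mural genes were called lower and 1 of 7 FAP genes higher with DUX4, and their part was not tested.

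Other genes of these lists were called in PDGFRa+ cells. Cx3cl1 stood at 128, 92.3, 158 and 138 CPM in PDGDUX and 25.8, 30.5 and 36.3 in PDGWT (2.06 ± 0.21, adjusted p = 4.80e-05), without overlap. The difference between the cell types was itself called for Cx3cl1 (1.69 ± 0.27, adjusted p = 0.00322), since in CD31+ cells it was at 90.1, 86.2, 82.6 and 113 against 78, 81.1 and 55.6 CPM. Ccl22 was at 0.461, 2.67, 0.854 and 0.857 CPM with DUX4 and at 0 in all 3 WT libraries, or at least 6.57-fold higher with that floor. Irf8, a transcription factor of dendritic cell and monocyte lineages, was higher (0.89 ± 0.19, adjusted p = 0.0158), as were the lysosomal lipase Lipa (0.71 ± 0.16) and Cd9 (0.51 ± 0.13), and the lipid carrier Apoe was lower (-1.01 ± 0.19).

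The effect of DUX4 on the members was not shown to differ between the cell types: 0 of 34 interaction terms were called (6 at an unadjusted p under 0.05, 2 by DESeq2 and 1 by voom), where 2.25% of all genes were called, 0.553% higher and 1.7% lower. Both comparisons enter this test. The smallest p values were those of Atp6v0d2 (-6.22 ± 1.70, adjusted p = 0.0714) and Cd83 (-2.20 ± 0.64, adjusted p = 0.0989), both with a smaller effect in PDGFRa+ cells.

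The same libraries also allow a comparison between the sorts, PDGFRa+ against CD31+ cells. With DUX4, 13 of 34 members were lower and 0 higher, where 33.7% of all genes were called, 16.4% higher and 17.3% lower, and the median difference was -2.40. Cd68 was at -2.72 ± 0.55 (adjusted p = 0.00152), Cd14 at -2.62 ± 0.52 (adjusted p = 0.00182) and Cd83 at -2.38 ± 0.43 (adjusted p = 0.000590). In WT cells 3 members were lower (Cd14, Zbtb46 and Lgals3) and 1 higher, where 31.1% of all genes were called, 16.7% higher and 14.5% lower. The WT median difference was -1.67. It was 0.0011 with 2 lower (Zbtb46 and Lgals3) without CD31WT replicate 1, and -3.39 with 18 lower without PDGWT replicate 3. The share of all genes called in those fits is not given. Gpnmb was the gene higher in WT PDGFRa+ cells (2.39 ± 0.55, adjusted p = 0.00483), and with DUX4 it was not called between the sorts (0.20 ± 0.45, adjusted p = 0.773). Lgals3 was lower in PDGFRa+ cells in both genotypes (-2.22 ± 0.30 in WT and -1.67 ± 0.26 with DUX4), and in the CD31WT libraries it was steady at 201 to 211 CPM where Ptprc ranged from 1.60 to 40.1.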

How the data were processed

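RNA was sequenced from 32 mouse libraries, 18 of whole muscle (500 ng RNA, KAPA mRNA kit) and 14 of sorted cells (NEBNext low-input and Nextera XT kits), as paired 50-base reads, per the labels' protocols. The submitters' processing notes name CASAVA 1.8, Salmon 0.6.0 and mm10, and the authors deposited a table of expected counts per Ensembl gene for each library, not scaled to depth. The annotation release, the step from transcripts to genes and the use of strand are not given in these sources. Of 43035 genes, 42545 were given a symbol from GENCODE (GRCm38).

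The expected counts were rounded and analysed in R 4.3.3 with edgeR 4.0.16 (filterByExpr with a minimum of 10 counts, trimmed mean of M-values (TMM) factors, robust quasi-likelihood test, Benjamini-Hochberg adjustment over all genes tested), fitting whole muscle and sorted cells apart. Calls were made where the adjusted p was below 0.05. Each SE is the log2 difference divided by the square root of F. CPM are TMM-normalised within each fit. Alternatives were DESeq2 1.42.0, limma 3.58.1 (voom with quality weights), other size factors and filters, fits of only 2 groups, terms for or fits within the accession blocks at 2 weeks, and leaving out libraries. The procedure was tested on simulated counts.

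Values per library are given for members called in a DUX4 comparison and for abundant members of each subset. Other lists are given as counts, with up to 3 called genes of smallest p in each. Members shown in full beyond that (such as Csf1r at 16 weeks, Cd163, Clec10a, Cd209a, Ptprc and Fcgr1 in sorted cells) were chosen after their values were seen, as was the pair of sorted libraries left out together. The members and lists were chosen with earlier results of these data known. Promoters are those of RefSeq (GRCm38.p6).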

Additional observations from a re-analysis of the deposited data

Results flagged for a closer look

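In 240 sets of 4 or 5 libraries (each member and each summed subset in each group of that size), the highest or lowest library lay far from the rest in 26 by Dixon's test. Chance flags about 1 in 20 such sets, and members in the same library are not independent. WT.16Weeks replicate 1 accounts for 16 of them, and always as the highest of its group. Summed over subsets it held 177 CPM of the macrophage and monocyte genes, 15.1 of the Fc receptor and adaptor genes and 88.3 of the lipid-laden genes, against at most 26.5, 2.52 and 5.72 in the other libraries of its group. Singly it held 117 CPM of Lyz2, 44.8 of Lgals3, 38.0 of Gpnmb, 25.7 of Cd68, 8.27 of Cybb, 6.77 of Fcgr3, 6.58 of Itgam and 5.67 of Itgax. The rest were 4.8 CPM of Tyrobp, 3.32 of Fcer1g, 3.0 of Atp6v0d2, 2.08 of Adgre1 and 1.82 of Spi1. Resident genes were not among them.

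At 2 weeks, WT.2Weeks replicate 1 was high in Ms4a7 (2.61 CPM) and Itgax (0.980), and IDUX.2Weeks replicate 1 in Cd83 (1.77). At 16 weeks, IDUX.16Weeks replicate 4 was high in Coro1a (6.50 CPM) and Folr2 (3.40). Among sorted cells, CD31DUX replicate 3 was high in Folr2 (7.60 CPM) and Clec10a (4.42), PDGDUX replicate 2 in Cd163 (2.78) and PDGDUX replicate 3 in Ptprc (16). PDGDUX replicate 1 was low in Cd68 (3.78 CPM).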

How the results depend on the processing

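No paired analysis was possible because the replicate numbers were given in accession order and no number in the titles is shared between groups. The term for 2-week blocks is a batch term, not a pairing: it called 3 members, Csf1r, Cd68 and Lgals3, the count also given by DESeq2 and voom. Counts of members called changed with the method more than their direction did. They are listed without the share of all genes called in the same fit. At 2 weeks 1 was higher with no filter on low counts, 8 in replicates 1 to 3 alone and 0 in replicates 4 and 5 alone, and leaving out single libraries gave 1 to 5. At 16 weeks the count was 15 with DESeq2, 24 with voom and 14 without WT.16Weeks replicates 1 and 4 together, and 2 to 25 without single libraries. In CD31+ cells voom gave 13, and single libraries 3 to 10. In PDGFRa+ cells 1 was higher in a fit of only those groups, and 0 to 1 without single libraries. The time interaction gave 2 higher with DESeq2 and 1 with the term for library blocks, and the cell type interaction 2 lower with DESeq2, 1 with voom, 1 without CD31WT replicate 1 and PDGWT replicate 3 together, and 0 to 1 without single libraries. Between WT sorts DESeq2 gave 2 higher and 8 lower, voom 6 lower, the same pair left out 10 lower, and single libraries 1 to 2 higher and 2 to 18 lower. Between DUX4 sorts the lower count was 21 with DESeq2, 30 with voom, 29 in a fit of only those groups and 10 to 14 without single libraries. Timd4 between the WT sorts turned from 0.40 to -8.02 without PDGWT replicate 3 (range without single libraries -8.02 to 1.69) and to -6.70 without the pair. The cause was not tested. The pair was chosen after the data were seen.

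Members under about 0.5 CPM, such as Fcgr1, Aif1 and Timd4 in WT muscle, rest on few counts.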

Other observations

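Genes of the mast cell list, Kit among them, summed to 28.7 to 111 CPM in CD31DUX and 12.5 to 67.4 in CD31WT. None of the 6 tested was called (0 at an unadjusted p under 0.05). Red cell and platelet genes summed to 6929 to 13791 CPM in CD31WT and 835 to 3974 in CD31DUX without overlap. In PDGFRa+ cells they summed to 846 to 5844 CPM without DUX4 and 222 to 1479 with it, the highest being PDGWT replicate 3. Lyz1, the copy of Lyz2, stood at 21.9, 19.7, 50.4 and 15.4 CPM in CD31DUX and at 8.92, 0 and 0.709 in CD31WT, the library at 8.92 being the one with 506 CPM of Lyz2.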
